A study of Mus musculus with 2 samples.

Results

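The 33 genes described here encode the enzymes that remove reactive oxygen species in mouse cells, the proteins that make, recycle and use glutathione, and the regulators of their transcription. They were taken by gene symbol from the gene tables of both libraries, and each of the 33 symbols matched 1 of the 32285 genes listed. They fall into 8 groups by role: superoxide dismutases and catalase (Sod1, Sod2, Sod3, Cat), glutathione peroxidases (Gpx1, Gpx2, Gpx3, Gpx4, Gpx8), peroxiredoxins (Prdx1 to Prdx6), thioredoxin genes (Txn1, Txnrd1, Srxn1), Nqo1 and Hmox1, glutathione supply (Gclc, Gclm, Gss, Gsr, Slc7a11), glutathione S-transferases (Gsta4, Gstm1, Gstm2, Gstm5, Gstp1, Gstt1), and the regulators Nfe2l2 and Keap1.

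Droplet single-cell RNA sequencing was done on cochlear sensory epithelium from C57BL/6J mice of 4 to 6 weeks. Every ear, the controls too, had 2 h of noise at 105 dB (octave band, 8 to 16 kHz), and tissue was taken 2 days afterwards. Drug-NIHL cochleae were given a drug (90 mg/ml) ahead of the noise; NIHL cochleae are the untreated opposite ears of these mice. The labels give n = 5 per group, but the cells of each group were captured as 1 library. No source used here gives the drug's route, and the series title abbreviates it as VPA without the labels spelling it out. There was no ear without noise. Drug, ear and capture therefore cannot be told apart, there is no replicate error, and no test was possible: every comparison below is between 2 libraries. Intervals are exact 95% intervals of the counts and cover counting error only.

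Sound-evoked activity and loud noise raise the load of superoxide and hydrogen peroxide in the cochlea, where hair cells and the stria vascularis are metabolically active. Superoxide dismutases turn superoxide into hydrogen peroxide, and catalase, glutathione peroxidases and peroxiredoxins remove the peroxide. Glutathione peroxidases use glutathione, which is built from cysteine by glutamate-cysteine ligase and glutathione synthetase, whereas peroxiredoxins are reduced by thioredoxin. NRF2, the product of Nfe2l2, is held back by KEAP1 and drives many of these genes through the antioxidant response element when cells are oxidised. The stria vascularis holds marginal cells, which secrete potassium into the endolymph, and pigmented intermediate cells, which set the endocochlear potential.

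The sequences that NRF2 is known to read were looked for in the 250 bases before each RefSeq gene start (GRCm38.p6), using the core of the antioxidant response element, TGACNNNGC, on both strands. A window was at hand for 27 of the 33 genes, and not for Prdx6, Gsta4, Gclc, Sod3, Hmox1 and Gsr. The core was in the windows of 6 of the 27 (Sod1, Prdx1, Txnrd1, Gclm, Gstm5 and Nfe2l2), against 11.5% of the 27025 genes with a window. The 5 windows printed are shown 5′ to 3′ on the gene's strand with the core in capitals. They belong to genes that stand out by cell type below. Txnrd1 (chr10:82858956-82859205, plus strand) had its highest level in hair cells. Prdx1 (chr4:116685349-116685543, plus), Gclm (chr3:122245307-122245556, plus) and Gstm5 (chr3:107895604-107895820, plus) were all high in oligodendrocyte-like cells. Gpx2 (chr12:76795555-76795804, minus) had its highest level in cluster 8, a group without a cell type name, and its next highest in hair cells. The Gpx2 window does not hold these letters.
Txnrd1: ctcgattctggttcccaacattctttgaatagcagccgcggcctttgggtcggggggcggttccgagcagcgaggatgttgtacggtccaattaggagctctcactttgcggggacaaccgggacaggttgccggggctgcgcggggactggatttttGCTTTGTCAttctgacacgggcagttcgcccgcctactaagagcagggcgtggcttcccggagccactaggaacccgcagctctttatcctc
Prdx1: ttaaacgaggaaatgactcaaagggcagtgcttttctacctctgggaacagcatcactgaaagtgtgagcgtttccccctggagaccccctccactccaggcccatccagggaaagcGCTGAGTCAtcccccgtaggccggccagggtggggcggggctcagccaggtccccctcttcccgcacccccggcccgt
Gclm: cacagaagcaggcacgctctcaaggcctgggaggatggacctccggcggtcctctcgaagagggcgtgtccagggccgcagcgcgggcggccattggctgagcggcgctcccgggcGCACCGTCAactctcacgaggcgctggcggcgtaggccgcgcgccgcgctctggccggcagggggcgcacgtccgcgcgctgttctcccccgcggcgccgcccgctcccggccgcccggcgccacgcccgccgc
Gstm5: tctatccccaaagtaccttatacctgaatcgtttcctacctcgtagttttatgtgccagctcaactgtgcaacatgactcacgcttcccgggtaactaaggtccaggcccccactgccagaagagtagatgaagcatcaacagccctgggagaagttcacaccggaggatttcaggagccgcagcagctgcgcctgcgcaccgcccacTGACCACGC
Gpx2: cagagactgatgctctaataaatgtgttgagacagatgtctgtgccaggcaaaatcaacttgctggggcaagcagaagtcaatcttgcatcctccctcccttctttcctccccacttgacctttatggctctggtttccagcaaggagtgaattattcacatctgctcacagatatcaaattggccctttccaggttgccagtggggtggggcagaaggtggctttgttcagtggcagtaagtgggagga
The core began 92 bases before the RefSeq start in Txnrd1, 133 in Prdx1, 134 in Gclm and 42 in Gstm5. The Prdx1 and Gstm5 windows are shown without their last 55 and 33 bases, which overlap the annotated gene. The Txnrd1 window lies before an internal RefSeq start, inside the annotated gene; it is 1 of 3 Txnrd1 windows, and the other windows do not hold the core. A match to these letters is a description of the sequence and not evidence of binding.

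After filtering, 16618 NIHL and 17536 Drug-NIHL cells were kept, with 33790872 and 30725156 unique molecular identifiers (UMIs, the count of captured RNA molecules) and medians of 1128.0 and 1128.5 UMIs per cell. The median share of mitochondrially encoded UMIs was 4.86% in NIHL and 6.72% in Drug-NIHL. Predicted doublets removed were 805 barcodes (4.62%) in NIHL and 2597 (12.9%) in Drug-NIHL, at thresholds set separately in each library, and 111 barcodes occurred in both libraries, 87 of them after filtering. The cells formed 38 clusters, built without the 33 genes and without a further list of pathway genes; clusters were called "-like" by markers. Compared here are the 25 groups with at least 50 cells in each library: 19 named classes and 6 clusters that keep a number, namely cluster 8 (Ceacam16, Epyc), cluster 14 (Ceacam10, Them5), cluster 16 (Slc6a12, Slc6a13), cluster 19 (Gpr83, Ccl11), cluster 23 (Slc47a1, Penk) and cluster 29 (Fasl, Xcl1, Mpo). The make-up of the libraries differed: Schwann or satellite glia-like cells were 41.3% of NIHL and 23.5% of Drug-NIHL cells.

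The hair cell-like class held 106 NIHL and 155 Drug-NIHL cells. Otof had a UMI in 73.6% and 78.7% of them, Pou4f3 in 54.7% and 52.3%, Tmc1 in 63.2% and 57.4%, and Slc17a8, the vesicular glutamate transporter of inner hair cells, in 42.5% and 38.1%. The outer hair cell genes Slc26a5 and Strip2 had 0 UMIs in both libraries, which allows up to 2.83% and 1.94% of cells with a UMI, and Ocm was in 8 and 7 cells. Sox2, a supporting cell gene, was in 27.4% and 30.3% of the hair cell-like cells and in 8.07% and 6.62% of the other cells. The leading genes of the hair cell-like class include Lhx3, Xirp2, Chrna10, Cib3 and Chrna9. Which kind of hair cell it holds, and whether all of them are cochlear, was not tested. Strial intermediate cell-like cells (425 and 690) carried Dct in 99.8% and 100% and Tyr in 70.4% and 67.4%, with Oca2 at 0 UMIs. Strial marginal cell-like cells (157 and 239) carried Kcne1 in 89.2% and 88.7% and Kcnq1 in 39.5% and 37.7%, with Add2 at 0 UMIs.

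Levels are given as CPM, a gene's UMIs counted per 1000000 UMIs of that class in that library, NIHL first. A gene was called high in a class where its CPM was at least 2 times that of all other cells in both libraries, and low where it was at most 0.5 times. By this rule 32 of the 33 genes were high in at least 1 of the 25 groups, and Keap1 in none, where 75.2% of all genes measured were high in at least 1. The group called highest for a gene is the one with the largest level in its lower library. For 22 of the 33 genes it led in both libraries; for Sod3, Cat, Gpx1, Prdx6, Txn1, Nqo1, Gclc, Gclm, Gstm1, Gstm5 and Keap1 another group led in 1 library or both. Levels of different genes are not compared with each other, because 3′-end counts carry no correction between genes.

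**Figure D1:**
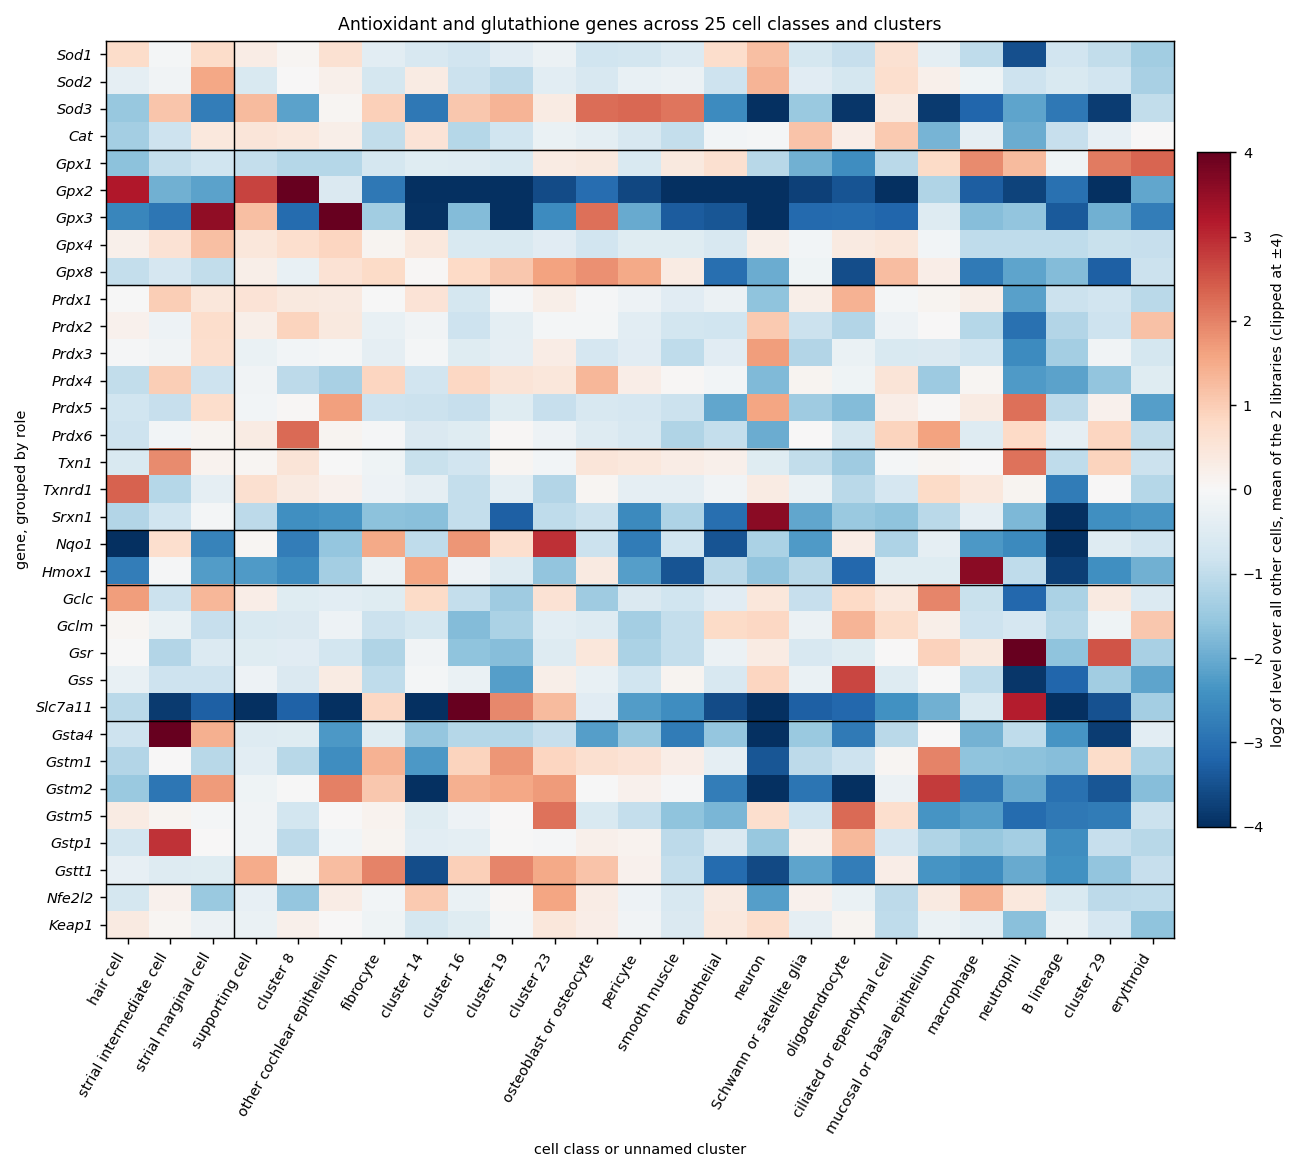
Each row is 1 of the 33 genes, ordered by role, each column 1 of the 25 cell groups, and the colour is the log2 ratio of the gene's CPM in the group to that in all other cells, as the mean of the 2 libraries and clipped at both ends of the scale. Gsta4 in strial intermediate, Gpx2 in cluster 8 and hair, Gpx3 in other cochlear epithelium and marginal, Slc7a11 in cluster 16, Gsr in neutrophil and Srxn1 in neuron cells stand out as dark red fields.

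Superoxide dismutases and catalase were spread over many classes. Sod1, the cytosolic enzyme, was highest in neuron-like cells, at 267 CPM (253.6 to 281.0) in NIHL and 298 (282 to 314) in Drug-NIHL, and was next highest in marginal cells (242 and 244) and hair cells (241 and 243), whose intervals overlap. Sod2, the mitochondrial enzyme, was highest in strial marginal cells at 559 (489.9 to 636) and 501 (442 to 565) CPM, above neurons at 396 and 367. Sod3, the secreted enzyme, was highest in pericyte-like cells at 65.8 and 63.2 CPM, with smooth muscle-like cells at 54.7 and 64.4, an order within the counting error, while osteoblast or osteocyte-like cells had 37.6 and, the highest in Drug-NIHL, 95.7. Cat, the peroxisomal catalase, was the only one of the 33 genes high in Schwann or satellite glia-like cells, at 83.9 and 86.5 CPM, 2.19 times the other cells in both libraries.

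The glutathione peroxidases differed by cell type. Gpx2, known as the gastrointestinal form, was highest in cluster 8, the Ceacam16 and Epyc epithelium, at 2715 and 2461 CPM. Hair cells came next (1479.8 and 1159), and organ of Corti supporting cell-like cells followed (1204 and 676). Gpx3, the secreted form, was highest in other cochlear epithelium-like cells at 2455 and 2545 CPM, then in marginal cells at 1594 and 1610.4, then in osteoblast-like cells at 689.6 and 618. Gpx4, which reduces lipid peroxides in membranes, was highest in marginal cells (2540.2 and 2019.6 CPM) and was high in no other group. Gpx1, the widespread cytosolic form, was highest in cluster 29 (1098 and 1147), erythroid-like cells (997 and 1521) and macrophage-like cells (894 and 890.0). Gpx8, of the endoplasmic reticulum, was highest in osteoblast-like cells at 234 and 191 CPM, and was also high in cluster 23, pericytes and ciliated or ependymal cell-like cells.

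Each peroxiredoxin had a different leading class. Prdx1, cytosolic, was highest in oligodendrocyte-like cells at 1821 and 1348 CPM, followed by strial intermediate cells at 1182 and 1205. Prdx2, abundant in red cells, was highest in erythroid-like cells at 839 and 870 CPM. Prdx3, mitochondrial, was highest in neurons at 139 and 101 CPM. Prdx4, of the secretory pathway, was highest in osteoblast-like cells (226 and 233), with intermediate cells second (190 and 176). Prdx5 was highest in neutrophil-like cells at 2482 and 2226 CPM, and Prdx6 in cluster 8 at 736 and 776. The gene model of Prdx5 shares exons on the opposite strand with Trmt112, and that of Prdx2 with Junb and Rnaseh2a; the sources used here do not give the strand setting of the counting.

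Among the thioredoxin genes, Txn1 (thioredoxin) was highest in neutrophil-like cells at 1989 and 1245 CPM, and strial intermediate cells were second at 1146 and 1289, with the order reversed in Drug-NIHL. Txnrd1, the cytosolic thioredoxin reductase, was highest in hair cells, and Srxn1, which repairs overoxidised peroxiredoxins, was high in neurons alone among the 25 groups, at 150 and 106 CPM, 14.4 and 10.2 times the other cells. The second group, marginal cells, had 31.2 and 22.8 CPM of Srxn1. Nqo1, a quinone reductase, was highest in cluster 23 (27.9 and 41.3 CPM), and Hmox1, which breaks down haem, was highest in macrophages (150.0 and 292) and second in cluster 14 (87.9 and 74.4).

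The 5 genes of glutathione supply had their highest levels in 4 groups. Gclc, the catalytic subunit of glutamate-cysteine ligase, was highest by its lower library in hair cells (115 and 69.8 CPM), while Gclm, the modifier subunit of the same enzyme, was highest in oligodendrocyte-like cells (187 and 156). Gss, glutathione synthetase, was highest in oligodendrocyte-like cells at 83.6 and 84.6 CPM, 6.09 and 6.52 times the other cells. Gsr, which regenerates glutathione, was highest in neutrophils at 613 and 416 CPM, 18.2 and 13.5 times the other cells. Slc7a11, the cystine importer, was highest in cluster 16, the group led by the transporters Slc6a12 and Slc6a13, at 592 and 545 CPM, 41.6 and 28.2 times the other cells, and second in neutrophils. Gclm, Gss, Gstm5 and Keap1 also share exons with genes on the opposite strand.

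Of the transferases, Gsta4, which conjugates the lipid peroxidation product 4-hydroxynonenal, was the strial intermediate cell gene described below, and Gstp1 was highest in the same class. Gstm1 was highest by its lower library in cluster 19 (429 and 312 CPM), Gstm2 in mucosal or basal epithelium-like cells (211 and 173), Gstm5 in cluster 23 (623 and 564) and Gstt1 in cluster 19 (88.3 and 107). Gstp1 has near-identical copies in the genome, so its UMIs are uncertain. Nfe2l2 was highest in cluster 23 (271 and 281) and macrophages (211 and 254). Keap1 was high in no group and low in 2, with its highest level in neurons at 55.2 and 54.7 CPM, 1.61 and 1.65 times the other cells.

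Oligodendrocyte-like cells, of the central part of the nerve, held 4 high genes (Prdx1, Gclm, Gss, Gstm5) and 14 low ones, with 8.30% and 31% of all genes high and low. Neurons held 6 high genes (Sod1, Sod2, Prdx2, Prdx3, Prdx5, Srxn1) and 15 low ones, with 18.5% and 29.3% of all genes high and low. Neutrophils held 5 high genes (Gpx1, Prdx5, Txn1, Gsr, Slc7a11) and 15 low ones, with 4.62% and 36.9% of all genes. Macrophages held 3 (Gpx1, Hmox1, Nfe2l2) and 12, with 8.27% and 33.2%. Schwann or satellite glia-like cells held 1 high gene (Cat) and 13 low ones, with 6% and 27.8% of all genes.

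**Figure D2:**
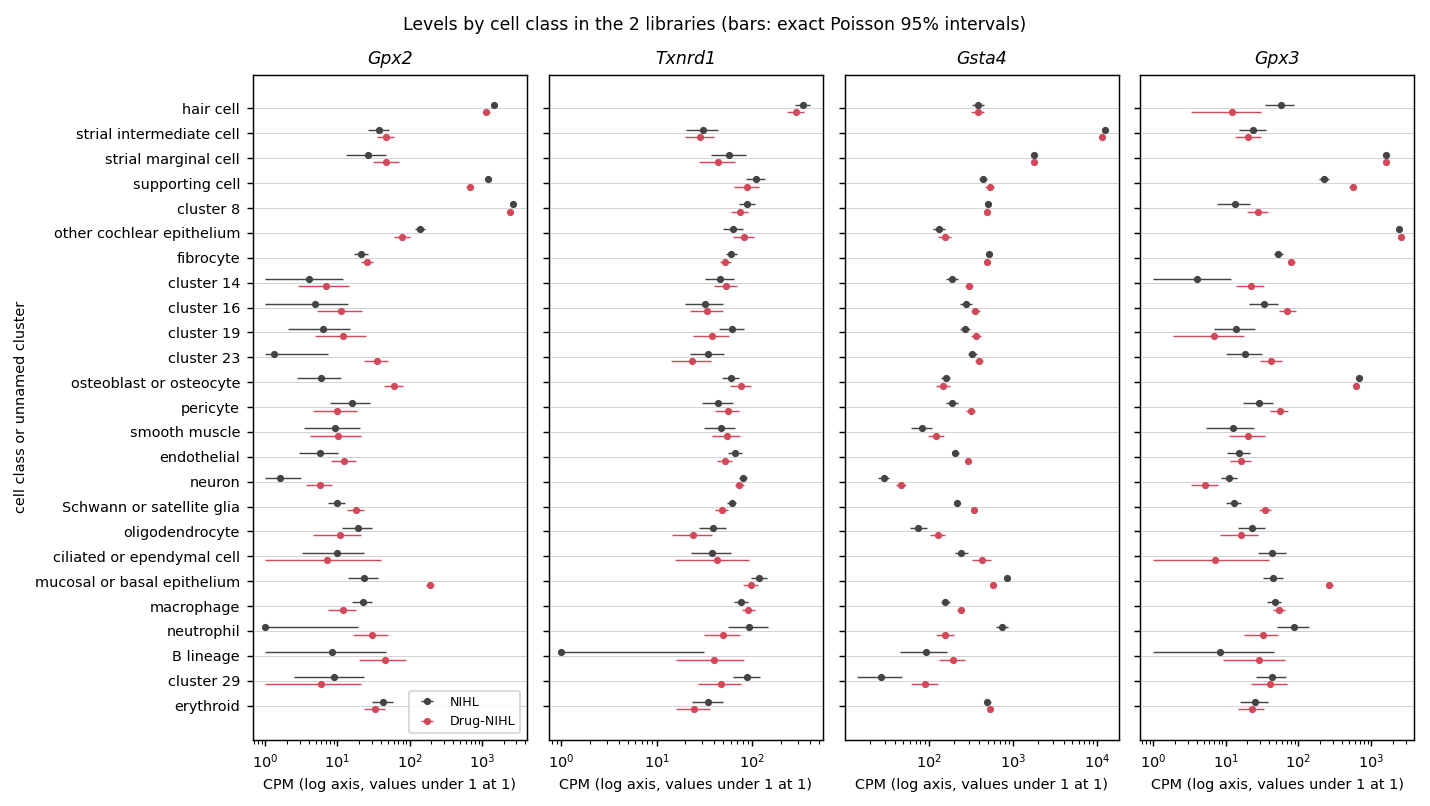
Points are the CPM of Gpx2, Txnrd1, Gsta4 and Gpx3 in each of the 25 cell groups, 1 point per library, on a log axis (values under 1 drawn at 1), with exact 95% intervals as bars. Hair cells lead for Txnrd1 and come second to cluster 8 for Gpx2, intermediate cells lead for Gsta4, and marginal cells come second to other cochlear epithelium for Gpx3.

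In hair cells 3 of the 33 genes were high (Gpx2, Txnrd1, Gclc) and 6 were low (Gpx1, Gpx3, Nqo1, Hmox1, Gstm1, Gstm2), while 12.4% and 15.5% of all genes were high and low. Gpx2 was at 1479.8 CPM (1355 to 1613) in NIHL and 1159 (1045 to 1281) in Drug-NIHL, 10.7 and 8.01 times the other cells. It had a UMI in 90.6% and 87.1% of hair cells; after each cell was thinned to 1000 UMIs, which left 102 and 147 cells, the shares were 69.6% and 66.0%. In Schwann or satellite glia-like cells, taken as background at medians of 773 and 697 UMIs against 2375.5 and 1811 in hair cells, Gpx2 was in 0.627% and 1.19% of cells, and after thinning in 0.663% and 1.11%. The share of hair cells with Gpx2 was above this background at both depths. The tectorial gene Ceacam16, which leads the Gpx2-rich cluster 8, reached 0.80% and 2.18% of its cluster 8 level in hair cells, where Gpx2 reached 54.5% and 47.1%. Organ of Corti supporting cell-like cells, also rich in Gpx2, had Ceacam16 at 0.32% and 0.70% of that level, so it cannot trace RNA from them. How much hair cell Gpx2 came with RNA of other cells was not tested.

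Txnrd1, which keeps thioredoxin reduced, was at 338 CPM (280 to 405) in NIHL and 288 (233 to 352) in Drug-NIHL hair cells, 5.24 and 4.99 times the other cells, and no other group came above 119 CPM. Thinned to 1000 UMIs, 28.4% and 27.9% of hair cells had a Txnrd1 UMI, against 6.40% and 8.61% of neurons. Gclc was at 115 (82.0 to 156) and 69.8 (44.2 to 105) CPM, 4.45 and 2.30 times the other cells; in cells with at least 1000 genes its lower ratio was 1.67, so that it no longer passed 2. Nqo1 had 0 UMIs in hair cells of both libraries, which allows up to 8.60 and 9.10 CPM. Gpx3 had 20 and 4 UMIs in hair cells, and 90% and 75% of them were in 1 cell.

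In strial intermediate cells 3 genes were high (Txn1, Gsta4, Gstp1) and 5 low (Gpx2, Gpx3, Txnrd1, Slc7a11, Gstm2), with 4.68% and 26.5% of all genes high and low. Gsta4 was at 12452 CPM (12229 to 12677) in NIHL and 11206 (11019 to 11396) in Drug-NIHL, 46.5 and 33.4 times the other cells. It had a UMI in 98.8% and 99.3% of intermediate cells and in 21.3% and 27.4% of all other cells. Txn1 was at 1146 (1080 to 1216) and 1289 (1226 to 1354) CPM, 3.56 and 3.89 times the other cells, and Gstp1 at 86.6 and 63.2 CPM, 8.03 and 6.98 times. Txnrd1, the reductase of thioredoxin, was among the low genes, at 30.2 and 28.7 CPM.

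In strial marginal cells 6 genes were high (Sod2, Gpx3, Gpx4, Gclc, Gsta4, Gstm2) and 5 low (Sod3, Gpx2, Hmox1, Slc7a11, Nfe2l2), with 4.49% and 26.0% of all genes high and low. Gpx3 was at 1594 (1475 to 1720) and 1610.4 (1504 to 1723) CPM, 11.3 and 12.02 times the other cells, in 78.3% and 78.7% of the cells. Gpx4 was 2.53 and 2.14 times the other cells and Sod2 3.07 and 2.84 times. Gstm2 was at 98.4 and 110 CPM (3.06 and 3.54 times) and Gclc at 55.2 and 89.5 (2.09 and 3.01 times). Vmo1, the leading gene of the other cochlear epithelium-like class in which Gpx3 was highest, stood in marginal cells at 0.11% and 0.02% of its level there, where Gpx3 stood at 64.9% and 63.3%. Gsta4 in marginal cells was at 1772 and 1784 CPM, which is 14.2% and 15.9% of the intermediate cell level, and the melanin gene Dct stood at 7.38% and 8.89% of its intermediate cell level there; how much of marginal Gsta4 came with intermediate cell RNA was not tested. In cells with at least 1000 genes the lower ratio of Gpx4 was 1.87 and that of Gclc 1.93, and with each cell weighted equally that of Gsta4 was 1.92.

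The profiles of hair cells and of the 2 strial classes differed by gene. Gpx2 was at 1479.8 and 1159 CPM in hair cells, 37.6 and 46.8 in intermediate cells and 26.4 and 47.6 in marginal cells. Gpx3 was at 57.4 and 12.1, 24.0 and 20.5, and 1594 and 1610.4 CPM in the same order. Gsta4 was at 387 and 382, 12452 and 11206, and 1772 and 1784.

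The comparison of Drug-NIHL with NIHL asks how pretreatment with the drug alters noise-exposed cochleae, and it is given as the ratio of Drug-NIHL CPM to NIHL CPM within a class. Genes with at least 50 UMIs in the 2 sums were measured, and a difference of at least 0.32 on the log2 scale (25% higher or 20% lower) was counted. Over all cells, where the make-up of the library and the level per cell cannot be told apart, all 33 genes were measured and their median log2 ratio was -0.03, beside -0.04 for all 15705 genes measured. Hmox1 and Slc7a11 were higher in Drug-NIHL, where 9.46% of all genes were, and Prdx3 and Srxn1 were lower, where 7.95% were.

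Slc7a11 over all cells was at 24.8 CPM in NIHL and 32.9 in Drug-NIHL, a ratio of 1.32 (1.21 to 1.45). With clusters weighted as in the NIHL library the ratio was 1.03, so that it no longer passed this threshold. Hmox1 went from 24.9 to 32.2 CPM (1.30, 1.18 to 1.42) and Gpx1 from 249 to 309 (1.24, 1.21 to 1.28). Gsta4 was at 613 and 767 CPM, a ratio of 1.2499 (1.23 to 1.27), just under the threshold. Intermediate cells, which held 11937 of its 20727 NIHL and 13658 of its 23557 Drug-NIHL UMIs, were 2.56% and 3.93% of the cells. Over the alternative settings the ratio of Gsta4 ranged from 1.01 to 1.37, that of Gpx1 from 1.11 to 1.30 and that of Hmox1 from 1.21 to 1.37. Srxn1 was at 33.1 and 24.0 CPM (0.72, 0.66 to 0.79; 0.98 with each cell weighted equally), Prdx3 at 55.8 and 44.5 (0.80, 0.74 to 0.86), Prdx4 at 103 and 88.4 (0.86, 0.82 to 0.90) and Txnrd1 at 67.4 and 60.2 (0.89, 0.84 to 0.95).

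**Figure D3:**
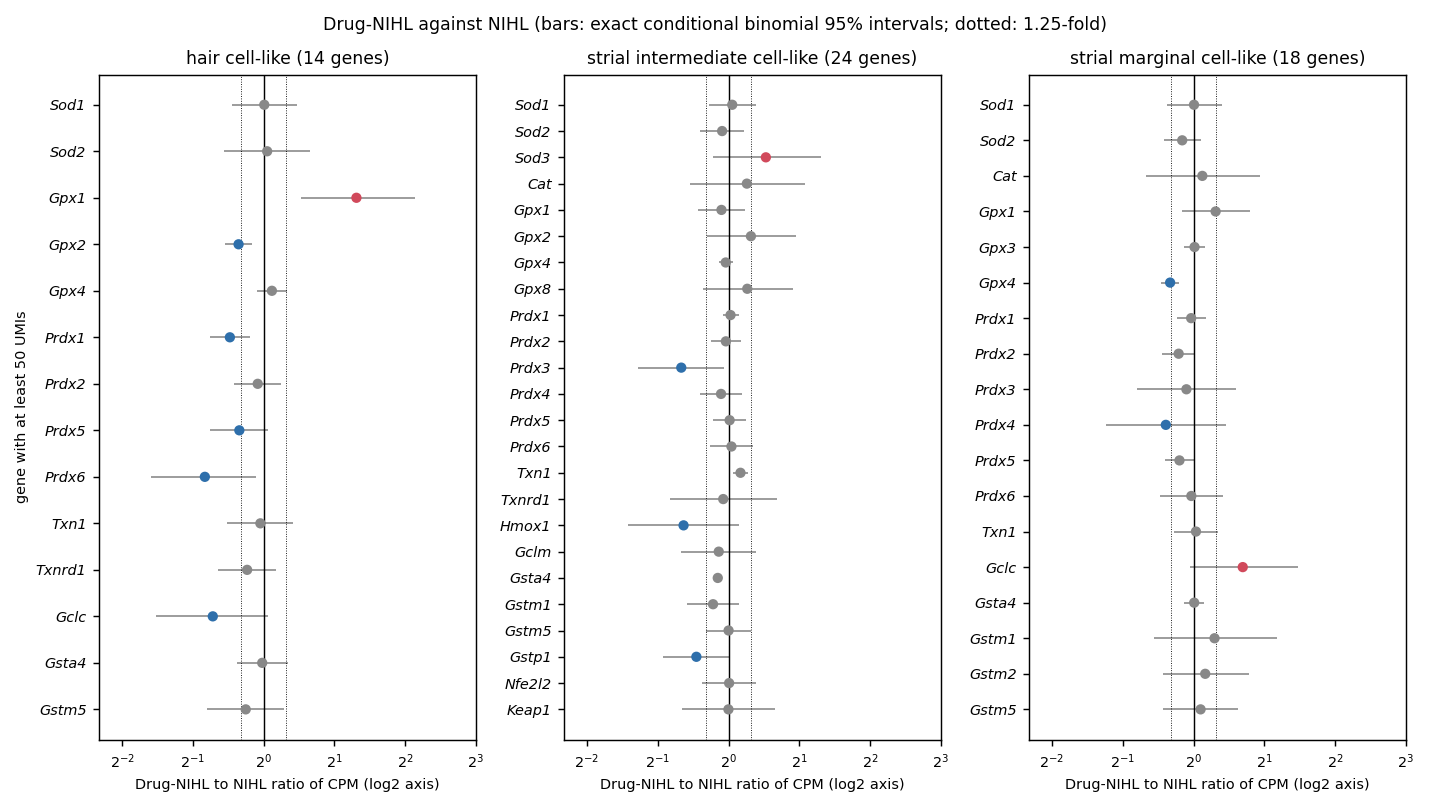
Points are the Drug-NIHL to NIHL ratios of the measured genes in hair, strial intermediate and strial marginal cells, with exact 95% intervals as bars, on a log2 axis; the solid line marks 1 and the dotted lines the threshold in both directions. Most points of the strial classes lie between the lines, whereas in hair cells Gpx1 lies above and Prdx1, Gpx2 and Prdx6 lie below with intervals that do not reach 1.

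In hair cells 14 of the 33 genes were measured, and the other 19 had too few UMIs. The median log2 ratio of the 14 was -0.16, beside -0.02 for all 2633 genes measured in this class. Gpx1 was higher in the Drug-NIHL library (16.7% of all genes were) and Gpx2, Prdx1, Prdx5, Prdx6 and Gclc were lower (21.3% were). Gpx2 was at 1479.8 and 1159 CPM, a ratio of 0.78 (0.68 to 0.90), and at 0.92 with each cell weighted equally. Prdx1 was at 726 and 522 CPM, 0.72 (0.59 to 0.88). Prdx6, the peroxiredoxin that also reduces phospholipid peroxides, was at 135 and 75.8 CPM, 0.56 (0.33 to 0.93), with 9 of its 47 and 5 of its 25 UMIs in 1 cell. Prdx5 (0.79, 0.59 to 1.04) and Gclc (0.61, 0.35 to 1.04) had intervals that include 1. Gpx1 was at 57.4 and 143 CPM, 2.49 (1.44 to 4.43), but 27.7% of its Drug-NIHL UMIs were in 1 cell, and without the top cell of each library the ratio was 1.91 (1.05 to 3.58).

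These hair cell differences rest on 106 and 155 cells, and the doublet call matters for them. With predicted doublets kept the class grew to 112 NIHL and 254 Drug-NIHL cells, 20 genes were measured with 8 higher and 4 lower, and the median log2 ratio was -0.003, beside -0.09 for all genes. Prdx6 then stood at 1.69 in place of 0.56, Gpx2 at 0.57 and Prdx1 at 0.78. Of the other hair cell genes, Sod1 (1.01, 0.73 to 1.38), Gpx4 (1.09, 0.94 to 1.254), Prdx2 (0.94, 0.75 to 1.19), Txn1 (0.97, 0.70 to 1.34), Txnrd1 (0.85, 0.64 to 1.13) and Gsta4 (0.99, 0.77 to 1.27) had intervals that include 1.

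In strial intermediate cells 24 genes were measured, with a median log2 ratio of -0.02, the same as for all 5314 genes measured to 2 decimals. Sod3 was higher in Drug-NIHL (11.7% of all genes were) and Prdx3, Hmox1 and Gstp1 were lower (14.9% were). Gsta4 was at 12452 and 11206 CPM, 0.90 (0.88 to 0.92), and Txn1 at 1146 and 1289, 1.12 (1.04 to 1.22), both within the threshold. Prdx3 was at 57.4 and 36.1 CPM, 0.63 (0.41 to 0.95), on 55 and 44 UMIs. The intervals of Sod3 (1.44, 0.86 to 2.48), Hmox1 (0.64, 0.37 to 1.10) and Gstp1 (0.73, 0.53 to 1.01) include 1. So do those of the abundant Gpx4 (0.97, 0.91 to 1.04) and Prdx1 (1.02, 0.94 to 1.10).

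In strial marginal cells 18 genes were measured, with a median log2 ratio of 0.01, beside -0.03 for all 2472 genes measured. Gclc was higher (12.9% of all genes were) and Gpx4 and Prdx4 were lower (17.9% were). Gpx4, the lipid peroxide reductase, was at 2540.2 CPM (2389 to 2698) in NIHL and 2019.6 (1900 to 2145) in Drug-NIHL, 0.80 (0.73 to 0.87). It was 0.83 with TMM factors, and 0.81 with each cell weighted equally. The other leading genes of the class had intervals that include 1: Gpx3 at 1.01 (0.91 to 1.12), Gsta4 at 1.01 (0.91 to 1.11) and Sod2 at 0.89 (0.75 to 1.07). Gclc (1.62, 0.96 to 2.80) and Prdx4 (0.76, 0.42 to 1.37) had intervals that include 1.

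Ranked by the cells of the smaller library, the leading 6 classes were Schwann or satellite glia, fibrocyte, endothelial, macrophage, pericyte and neuron-like cells. In macrophages 4 genes were higher (Sod1, Hmox1, Slc7a11, Gsta4; 13.9% of all genes were) and 4 lower (Gpx2, Prdx3, Gclc, Gclm; 12.9% were) of 26 measured. Hmox1 was at 150.0 CPM (133 to 169) in NIHL and 292 (267 to 318) in Drug-NIHL, a ratio of 1.95 (1.68 to 2.26), and 1.87 without the top cell of each library. The ratio was above 1 in each of the 3 macrophage clusters: 1.92 (1.61 to 2.29) in cluster 9, 2.55 (1.19 to 5.72) in cluster 24 and 1.91 (1.37 to 2.68) in cluster 33, where P2ry12 and Siglech lead and the level was 258 and 493 CPM. The median mitochondrial share of macrophages was 3.199% in NIHL and 4.65% in Drug-NIHL; its part in the difference was not tested. Nfe2l2 was at 211 and 254 CPM (1.20, 1.05 to 1.38), Gclc at 21.9 and 11.2 (0.51, 0.28 to 0.90) and Gclm at 49.5 and 32.6 (0.66, 0.46 to 0.93). In cluster 24, on few UMIs, Gclc and Gclm were both at 1.02 (0.09 to 8.90 and 0.36 to 2.71) and Nfe2l2 at 0.53 (0.24 to 1.07). Gpx2 (0.52, 0.29 to 0.91) had 52.5% of its NIHL UMIs in 1 macrophage.

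**Figure D4:**
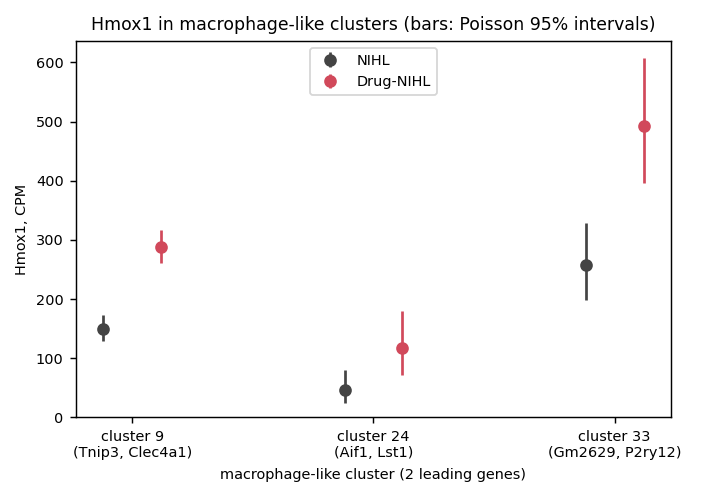
Points are the Hmox1 CPM of each macrophage-like cluster in the NIHL and the Drug-NIHL library, with exact 95% intervals as bars. In cluster 9 (150 and 288 CPM), cluster 24 (45.9 and 117) and cluster 33 (258 and 493) the Drug-NIHL point is the higher one.

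In neurons 3 genes were higher (Cat, Gsta4, Gstm1; 11.1% of all genes were) and 4 lower (Gpx3, Prdx3, Srxn1, Hmox1; 8.91% were) of 26 measured. Srxn1 was at 150 CPM (139.6 to 160) in NIHL and 106 (96.7 to 116) in Drug-NIHL, 0.71 (0.63 to 0.80). Prdx3, whose overoxidised form is a substrate of sulfiredoxin, was at 139 (129.6 to 149) and 101 (91.5 to 111) CPM, 0.72 (0.64 to 0.81). Both genes had their highest level in neurons, and both were lower there in Drug-NIHL. Cat was at 38.2 and 50.3 CPM (1.32, 1.09 to 1.60) and Gclm at 101 and 119 (1.18, 1.04 to 1.33). Gstm1 was at 7.24 and 20.5 CPM (2.83, 1.93 to 4.22), with 19.1% of its Drug-NIHL UMIs in 1 neuron. Hmox1 (0.50, 0.32 to 0.76) and Gpx3 (0.47, 0.28 to 0.77) were at 14.7 and 7.36 and at 11.2 and 5.29 CPM; with predicted doublets kept they stood at 0.77 and 1.04.

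In Schwann or satellite glia-like cells 3 genes were higher (Gpx2, Gpx3, Gsta4; 8.61% of all genes were) and 3 lower (Prdx4, Prdx6, Txnrd1; 12.7% were) of 30 measured. Each of the 3 higher genes was among those low in this class. Gpx3 was at 13.0 and 34.7 CPM, 2.68 (1.99 to 3.61), above 1 in all 5 clusters of the class (1.74 to 4.62). Gsta4 was at 214 and 344 CPM, 1.61 (1.48 to 1.74; 2.60 in cells with at least 1000 genes), but at 1.07 (0.95 to 1.21) in cluster 2, which held 559 of its NIHL UMIs, against 1.68 to 1.91 in the other clusters; and Gpx2 at 9.85 and 18.0, 1.82 (1.251 to 2.66). Genes of the classes where these 3 are highest were also higher in Schwann cells of the Drug-NIHL library: Dct had a ratio of 2.02, Ceacam16 of 1.95 and Vmo1 of 1.56; their part in the result was not tested. Prdx6 was at 203 and 161 CPM (0.80, 0.72 to 0.88; 0.99 in cells with at least 1000 genes), Prdx4 at 115 and 88.3 (0.77, 0.67 to 0.88) and Txnrd1 at 61.1 and 48.4 (0.79, 0.65 to 0.96). The median mitochondrial share was 6.11% and 9.23%.

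Fibrocytes had 3 higher (Cat, Gpx3, Gss; 10.5% of all genes were) and 6 lower genes (Sod3, Prdx4, Nqo1, Hmox1, Gstm2, Gstp1; 15.7% were) of 33 measured. The class sat in different clusters in the 2 libraries: cluster 4 held 55.4% of NIHL and 38.2% of Drug-NIHL fibrocytes, and cluster 13 held 7.53% and 26.2%. Sod3, the secreted dismutase, was at 31.6 and 19.7 CPM (0.62, 0.47 to 0.83). By cluster, it was 0.64 (0.43 to 0.95) in cluster 4 and 1.22 (0.61 to 2.51) in cluster 11. In clusters 13 and 22 it was 0.56 (0.19 to 1.99) and 0.77 (0.33 to 1.74). Prdx4 was at 180 and 138 (0.77, 0.69 to 0.86). Its ratios in clusters 4, 11, 13 and 22 were 0.87 (0.74 to 1.02), 0.89 (0.71 to 1.11), 0.74 (0.50 to 1.10) and 0.79 (0.55 to 1.13). Each of these intervals includes 1. The part of the change in clusters was not tested. Cat was at 21.1 and 28.7 (1.36, 1.02 to 1.83), with ratios of 0.89 to 1.63 by cluster and an interval that includes 1 in each. Hmox1 was at 28.9 and 19.7 CPM (0.68, 0.51 to 0.91), the opposite direction to macrophages. Without the top cell of each library it was 0.74, and the upper bound, 1.004, passed 1. By cluster, the Hmox1 interval lay below 1 only in cluster 4 (0.51, 0.31 to 0.83). It was 0.82 (0.25 to 2.57) in cluster 11, 0.89 (0.52 to 1.51) in cluster 22 and 1.87 (0.58 to 9.60) in cluster 13. Gpx3 was at 52.9 and 79.9 (1.51, 1.26 to 1.81), but its clusters were split: 3 of 4 had ratios of 1.85 to 2.20, and cluster 13, of the Slc4a11 fibrocytes, had 255 and 111 CPM (0.44, 0.33 to 0.59). Gstm2 (0.80, 0.67 to 0.96) was at 1.04 with clusters weighted as in NIHL, at 1.43 (1.10 to 1.87) in cluster 4 and at 0.22 (0.12 to 0.42) in cluster 13.

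Endothelial cells had 1 higher gene (Gsta4; 8.81% of all genes were) and 2 lower (Cat, Txnrd1; 11% were) of 23, with Txnrd1 at 67.0 and 51.4 CPM (0.77, 0.59 to 0.99). Pericytes had 3 higher (Sod1, Gpx3, Gsta4; 11.3% of all genes were) and 3 lower (Sod2, Prdx3, Prdx4; 17.0% were) of 21. Prdx2 in pericytes was at 331 and 266 CPM (0.80, 0.67 to 0.97), and Gpx3 (1.94, 1.13 to 3.43) had 25% of its NIHL UMIs in 1 cell.

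Gsta4, so abundant in intermediate cells, was the gene most often higher in Drug-NIHL: it was so in 11 of the 23 groups with enough UMIs, and lower in 2. The 11 were all outside the intermediate cells, where Gsta4 was at 0.90. In those 11 the melanocyte gene Dct, whose RNA marks intermediate cells, also had a ratio above 1, with an interval above 1 in 9; the interval included 1 in cluster 19 (1.12, 0.74 to 1.71) and oligodendrocyte-like cells (1.14, 0.87 to 1.49). Outside the intermediate class, the groups without higher Gsta4 also had a Dct ratio above 1, except neutrophils. The Dct ratios above 1 in these groups ran from 1.08 in organ of Corti supporting cell-like cells to 4.95 in osteoblast or osteocyte-like cells. Gsta4 was at 1.19 in the first and 0.93 in the second. A Dct ratio above 1 was therefore not particular to the 11. Over the 22 groups other than intermediate cells the median ratio was 1.253 for Gsta4 and 1.95 for Dct, and Dct was at least 25% higher in 16 of them. Dct had a UMI in 7.29% of the cells outside the intermediate class in NIHL and in 13.4% in Drug-NIHL. The 2 groups with lower Gsta4 were neutrophils (748 and 157 CPM, 71.5% of the NIHL UMIs in 1 cell, Dct ratio 0.13) and mucosal epithelium (838 and 580 CPM, 0.69, Dct ratio 4.34). How far the higher Gsta4 came from free RNA of intermediate cells was not tested.

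**Figure D5:**
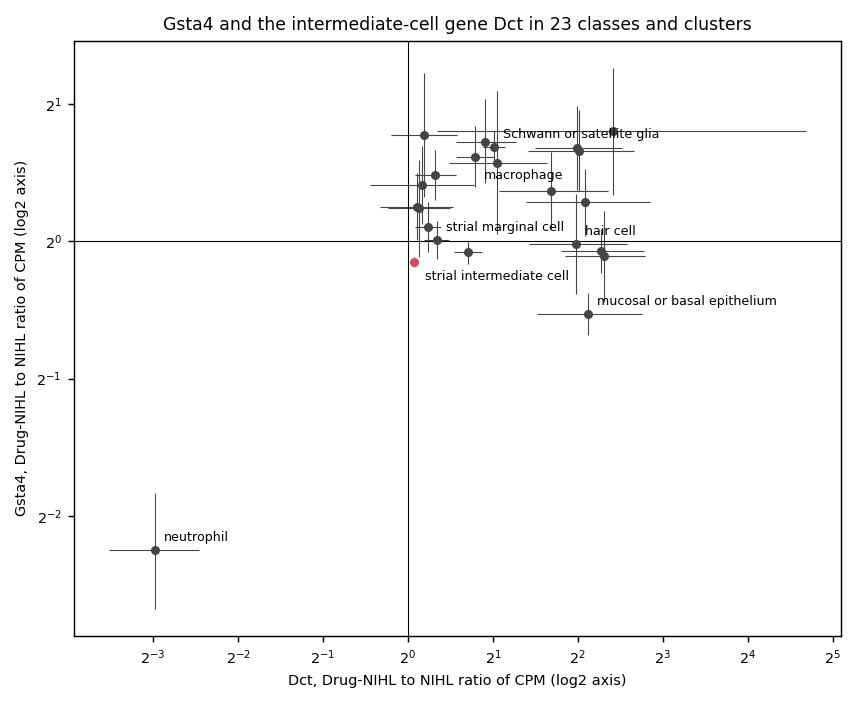
Each point is a cell group, with the Drug-NIHL to NIHL ratio of Dct on the horizontal and of Gsta4 on the vertical log axis. All 11 groups with Gsta4 at least 25% higher lie to the right of 1 for Dct, and so do the other groups except neutrophils. Intermediate cells lie near 1 on both axes at 1.05 for Dct and 0.90 for Gsta4.

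Across the 25 groups no single direction held. The median log2 ratio of the measured genes was above 0 in 12 groups and ranged from -0.56 in neutrophils to 0.72 in ciliated or ependymal cell-like cells, a class of 55 and 55 cells whose median UMIs were 9226 and 2283. Of all pairs of a gene and a group measured, 12.9% were higher and 16.7% lower. Prdx3 was lower in 8 of 19 groups and higher in 1, Prdx4 lower in 8 of 21 and higher in 2, and Txnrd1 lower in 6 of 19 and higher in 2. Sod1 was higher in 7 of 23 and lower in 2, and Gpx3 higher in 7 of 13 and lower in 1. Gpx4 was never higher and was lower in 2 of 25 groups. The groups share the same 2 libraries, so these counts are not independent.

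Among the other groups, organ of Corti supporting cell-like cells were named by 3 markers (Tectb, Otog, Otogl), and Tecta, Otol1 and Hmx3 also led. Ceacam16, another marker of that list, stood in them at 0.32% and 0.70% of its cluster 8 level. Neither Ceacam16 nor the remaining markers of the list (Fgfr3, Lfng, Prox1, Rorb and Hes5) counted towards the name. Cluster 8 also met 3 markers of this list but kept its number. Whether the organ of Corti supporting cell-like cells come from the organ of Corti was not tested. The class had 4 higher (16.5% of all genes were) and 6 lower (15.9% were) of 22 measured. Gpx2 there was at 1204 CPM (1122 to 1291) in NIHL and 676 (606 to 751) in Drug-NIHL, 0.56 (0.49 to 0.64), while Gpx3 was at 228 and 559, 2.45 (2.003 to 2.9996). Epyc, a leading gene of the Gpx2-rich cluster 8, was lower by a like ratio in these cells (0.52, 0.31 to 0.83, on 63 and 25 UMIs). Ceacam16, which also leads cluster 8, was at 1.95 (0.62 to 6.66) on 6 and 9 UMIs. Epyc stood at 6.24% and 2.61% of its cluster 8 level, where Gpx2 stood at 44.4% and 27.5%. The part of cluster 8 RNA in the Gpx2 difference was not tested. Within 1 class the secreted and the epithelial peroxidase thus stood on opposite sides of 1, and Vmo1, the gene that leads the Gpx3-rich epithelium, was at a ratio of 0.60. Sod2 was at 99.1 and 152 CPM (1.54, 1.09 to 2.17) and Prdx3 at 58.6 and 29.3 (0.50, 0.26 to 0.93).

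Mucosal or basal epithelium-like cells had 11 higher (24.7% of all genes were) and 3 lower (21.8% were) of 24. Gpx2 was at 23.3 and 192 CPM (8.23, 5.21 to 13.7), Gpx3 at 45.4 and 267 (5.88, 4.21 to 8.42), Nfe2l2 at 83.8 and 177 (2.11, 1.61 to 2.79) and Gclc at 66.3 and 152 (2.29, 1.69 to 3.14). Gpx3 had 35.9% of its NIHL UMIs in 1 cell. Gstm1 was at 552 and 303 (0.55, 0.48 to 0.63). Neutrophils had no gene higher (26.8% of all genes were) and 6 lower (35.1% were) of 11 measured: beside Gsta4, Txn1 (0.63, 0.55 to 0.71), Gsr (0.68, 0.54 to 0.86), Slc7a11 (0.48, 0.34 to 0.68), Nfe2l2 (0.61, 0.38 to 0.99) and Sod2 (0.59, 0.35 to 1.02). In oligodendrocyte-like cells 2 genes were higher (10.3% of all genes were) and 6 lower (25.4% were) of 23, among them Prdx1 at 1821 and 1348 CPM (0.74, 0.68 to 0.80). In erythroid-like cells Gpx1, which protects haemoglobin, was at 997 and 1521 CPM (1.53, 1.40 to 1.66). Osteoblast or osteocyte-like cells had 7 higher (13.9% of all genes were) and 4 lower (24.8% were) of 27; Sod3 there was at 37.6 and 95.7 CPM (2.54, 1.78 to 3.66) and Gstm1 at 223 and 131 (0.59, 0.46 to 0.73), whereas Gpx2 and Hmox1, also higher, had 55.3% and 54% of their Drug-NIHL UMIs in 1 cell.

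The wider pathway was read from 70 further genes of thioredoxin and glutaredoxin, glutathione use, NADPH supply, iron handling, NRF2 partners and sources of superoxide. Over all cells 67 were measured, 4 higher (9.46% of all genes were) and 3 lower (7.95% were), with a median log2 ratio of -0.03 beside -0.04 for all genes. Of the higher genes, Cybb (32.97 and 51.3 CPM, 1.56, 1.44 to 1.68) and Ncf4 (1.52, 1.30 to 1.77) encode parts of the phagocyte NADPH oxidase; with clusters weighted as in NIHL they stood at 1.07 and 1.09. Mgst2 (1.47) then stood at 0.905.

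In hair cells 21 of the 70 were measured, and 8 were higher (Txn2, Glrx2, Gstm7, Sqstm1, Ccs, Msrb3, Selenop, Selenow; 16.7% of all genes were) and 1 lower (Selenom; 21.3% were), with a median of 0.20 beside -0.02 for all genes. Selenow, a small selenoprotein, was at 1313 and 1963 CPM (1.49, 1.32 to 1.69), but at 1.08 with predicted doublets kept. Ftl1, ferritin light chain, was at 1540.0 and 1847 CPM (1.20, 1.07 to 1.35), and ranged from 1.01 to 1.23 over the alternative settings. In intermediate cells 39 were measured, 3 higher (11.7% of all genes were) and 7 lower (14.9% were), with a median of -0.08 beside -0.02 for all genes. Selenow was at 249 and 171 CPM (0.68, 0.57 to 0.83), the opposite direction to hair cells, Selenop at 4500 and 3687 (0.82, 0.79 to 0.85) and Slc3a2, the partner of the cystine importer, at 148 and 105 (0.71, 0.55 to 0.91). Fth1, ferritin heavy chain, was at 28091 and 29044 CPM in intermediate cells (1.03) and at 10206 and 10879 in marginal cells (1.07, 1.02 to 1.11), where 28 genes were measured, 4 higher (12.9% of all genes were) and 4 lower (17.9% were), with a median of -0.03, the same as for all genes to 2 decimals. In neurons Oxr1, an oxidation resistance gene, was at 157 and 239 CPM (1.52, 1.39 to 1.67), Maoa at 7.06 and 14.3 (2.02, 1.33 to 3.098) and Ucp2 at 19.9 and 12.2 (0.61, 0.43 to 0.86).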

How the data were processed

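The libraries were made with a 10x Genomics kit, and the deposited files hold raw counts of UMIs per gene and barcode, with Cell Ranger 5.0.1 named as the writer per the file headers. Per the submitters' processing notes, Cell Ranger 5.0, STAR and Seurat 3.2.2 were used, and the builds mm10 and GRCm38 are named; the sources used here do not say how the authors filtered cells.

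Cells with at least 500 UMIs, at least 300 genes and at most 20% mitochondrially encoded UMIs were kept, and predicted doublets (Scrublet in scanpy 1.11.5, expected rate 0.08, score thresholds 0.264 in NIHL and 0.164 in Drug-NIHL) were removed. The files hold 18545 NIHL and 21773 Drug-NIHL barcodes, where the labels speak of about 20000 cells. Clusters came from 3000 variable genes without the members and pathway genes, 30 components, 15 neighbours and Leiden resolution 1 (leidenalg 0.10.2). A class needed 3 markers of its list, 5 where none was among the 10 leading genes; that rule and those for intermediate cells (Dct and Tyr) and cluster 29 were set after the clusters were seen. Names are rebuilt here, so they may differ from the study's. Samples were grouped by the labels, with 1 library per group, so no test was run. UMIs were summed per class and library and divided by the class total. Alternatives varied scaling, count minimum, cell filters, doublets, weighting and clustering. Levels carry exact Poisson intervals and ratios exact conditional binomial intervals (scipy 1.17.1). The steps were tested on simulated data.

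All 33 members are accounted for: named in the 3 hair and strial classes are genes at least 2 times the other cells, for every member its highest class, and per class up to 4 members in each direction whose interval lies furthest from 1. Genes named in other classes were chosen after their values were seen. The members, lists and markers were chosen with earlier results of these data known. Of the 71 pathway genes listed, 70 were used; Nnt has 2 entries and was left out. TMM factors came from edgeR 4.0.16. Gene positions are those of GENCODE M21, in which 32158 of the 32285 identifiers and all 33 members were found. The value of 1 marker of marginal cells is not reported here.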

Additional observations from a re-analysis of the deposited data

Results flagged for a closer look

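The direction of 3 genes differed between cell types, with 95% counting intervals on opposite sides of 1; the differences between the cell types were not tested. Gpx2 had a Drug-NIHL to NIHL ratio of 1.82 (1.251 to 2.66) in Schwann or satellite glia-like cells and of 0.78 (0.68 to 0.90) in hair cell-like cells, at levels of 9.85 and 18.0 CPM in the first and 1479.8 and 1159 CPM in the second. Gpx3 had a ratio of 2.68 (1.99 to 3.61) in Schwann or satellite glia-like and of 0.47 (0.28 to 0.77) in neuron-like cells, which became 1.04 with predicted doublets kept; Vmo1, the leading gene of the Gpx3-rich epithelium, had ratios of 1.56 and 0.47 in the same classes, and its part was not tested. Hmox1 had a ratio of 1.95 (1.68 to 2.26) in macrophage-like and of 0.50 (0.32 to 0.76) in neuron-like cells (0.77 with predicted doublets kept), on 267 and 520 UMIs in macrophages and 81 and 32 in neurons.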

How the results depend on the processing

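No paired analysis was possible because each group is 1 library. The median log2 ratio of the 33 genes over all cells, -0.03, was 0.039 when each cell's CPM was averaged. The other 44 alternative medians, for all cells and the 3 hair and strial classes, were classed as unmoved. The limit for this was the spread of the ratios between genes, and not counting error. It is a loose limit where few genes were measured, as in hair cells. The hair cell median lay between -0.23 (genes with at least 200 UMIs) and -0.003 (predicted doublets kept).

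The number of genes counted as higher or lower depended on the setting. Over all cells it was 2 and 2, against 4 and 1 with TMM factors, without mitochondrially encoded UMIs or with cells of at most 10% mitochondrial UMIs, 2 and 1 with cells of at least 1000 genes or doublets kept, 3 and 0 with each cell weighted equally, and 0 and 1 with clusters weighted as in NIHL. In hair cells it was 1 and 5, against 1 and 3 with TMM factors, 2 and 7 of 23 genes at 20 UMIs, 0 and 3 of 7 at 200 UMIs, and 8 and 4 of 20 with doublets kept. In intermediate cells it was 1 and 3, against 1 and 6 of 29 at 20 UMIs, 0 and 0 at 200 UMIs, 3 and 2 with cells of at least 1000 genes, 0 and 1 at 10% mitochondrial UMIs, and 2 and 3 with TMM factors, doublets kept, totals without mitochondrial UMIs or the members among the variable genes. In marginal cells it was 1 and 2, against 3 and 1 with TMM factors, 3 and 7 of 26 at 20 UMIs, 0 and 1 of 9 at 200 UMIs, 1 and 1 with cells of at least 1000 genes or at most 10% mitochondrial UMIs, 2 and 3 with doublets kept, 2 and 2 with each cell weighted equally, and 1 and 3 at resolution 2 or with the members among the variable genes.

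Of the alternative ratios of single genes, 991 moved by less than their counting spread and 81 moved further. Another 4 changed direction from a main value past the threshold of a counted difference. With predicted doublets kept these were Prdx6 in hair cells (1.69) and Gpx3 in neurons (1.04). With clusters weighted as in NIHL they were Gstm2 in fibrocytes (1.04) and Mgst2 over all cells (0.905). Ratios within the threshold in the main setting also crossed 1 and were counted among the 991 or the 81. Txn1 in intermediate cells went from 1.12 to as low as 0.99. In Schwann or satellite glia-like cells Txn1 went from 0.87 to as high as 1.06. Fth1 crossed 1 in endothelial, fibrocyte, macrophage, pericyte and intermediate cells, and Ftl1 did so in macrophages. The cause was not tested. A changed count minimum only admits or drops genes, so it cannot move the ratio or level of a single gene. The 991 ratios, and the 89 unmoved levels given below, include such settings and so overstate how stable single genes were. With doublets kept Ucp2 in neurons was 0.928, in place of 0.61. Of the alternative levels, 26 moved, 89 did not and none changed direction; Gstm2 in marginal cells was 5.20 in place of 3.06 times the other cells with each cell weighted equally. Leaving out the top cell of each library, an alternative chosen after seeing the data, brought Gpx1 in hair cells to 1.91 and Gpx2 in macrophages to 0.79. Weighting by clusters gives no value for classes of 1 cluster. Depth limits hair cells most among the 3 hair and strial classes: 19 of the 33 genes had under 50 UMIs there.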
